A study of Mus musculus with 12 samples.

Results

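The genes described here encode 10 heat shock proteins of the cytosol and the mitochondria: Hspa1a, Hspa1b, Hsph1, Hspa8, Hsp90aa1, Hsp90ab1, Dnajb1, Hspb1, Hspd1, and Hspe1. They were taken by symbol from the table of 22456 genes, and all 10 were in it. Liver RNA-Seq libraries came from 12 male BALB/cByJ mice aged 2 to 8 months, with 3 mice in each of 4 groups. WT (Lpin1+/+) and Lpin1-/- littermates came from a colony carrying the fatty liver dystrophy (fld) mutation, a spontaneous loss of lipin 1 that is present in every tissue and not only in liver. Fasted mice were kept singly without food for 16 hours at 18 to 20 °C, and refed mice had the same fast followed by 5 hours with chow. All groups had the cool single housing of the fast, but the caging and temperature during refeeding are not stated. Refed livers were taken later in the day than fasted livers, so feeding state and time of day cannot be told apart. Expression is given as RPKM, a read count scaled both by transcript length and by the mapped reads of the library.

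Heat shock proteins are chaperones that help other proteins to fold, to assemble, and to recover after damage. Hsp70 proteins (Hspa1a, Hspa1b, and the constitutive Hspa8) bind unfolded stretches in a cycle driven by ATP, started by a J-domain partner such as Dnajb1 and reset by an exchange factor such as Hsph1. Hsp90 proteins (the inducible Hsp90aa1 and the more constant Hsp90ab1) act later on clients such as kinases and steroid receptors, Hspb1 is a small heat shock protein that holds unfolded proteins without ATP, and Hspd1 with its lid Hspe1 forms the folding chamber of the mitochondrial matrix. In stressed cells the transcription factor HSF1 raises many of these genes together by binding repeats of the letters GAA in alternating orientation. In liver, heat shock genes are also known to follow the daily cycle of body temperature and feeding.

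The Lpin1 transcript stood at 0.726 to 22.0 RPKM in the WT libraries and at 0.00573 to 0.0597 RPKM in the Lpin1-/- libraries, so the libraries fell on either side as labelled. Hepatocyte markers summed to 31560 to 74400 RPKM over the 12 libraries, against 0.487 to 1.71 RPKM for skeletal muscle markers. Relative depth, read from the spacing of low RPKM values, ran from 0.80 to 1.07 of the second refed WT library. Whole tissue was sequenced, so a change in the share of a cell type and a change in RNA per cell cannot be told apart.

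No member passed the threshold in any of the 5 contrasts of the limma fit, although refed WT liver had the highest mean of the 4 groups for 8 of the 10 genes, the exceptions being Hspa1a and Hspe1. Hspa1a was below the mean of 0.5 RPKM needed for testing, which left 9 members. An adjusted p below 0.05 was reached by 0 of 9 members for refeeding in WT, where 1.72% of the 11507 genes tested passed, and by 0 of 9 for refeeding in Lpin1-/- liver, where 20.7% passed. It was reached by 0 of 9 for genotype in fasted liver (18.8% of all genes), 0 of 9 for genotype in refed liver (6.67%), and 0 of 9 for the interaction (1.28%), which is the refeeding response in Lpin1-/- minus that in WT. At an unadjusted p below 0.05 the limma counts were 5, 3, 0, 4, and 1 of 9 members, against 13.9%, 36.1%, 33.0%, 22.5%, and 18.1% of all genes. The median log2 fold change of the 9 members was 0.85 for refeeding in WT and 0.52 for refeeding in Lpin1-/- liver, compared with 0.19 and 0.25 over all genes tested. Relative to these shifts of all genes, which rescaling by the median ratio moved to 0.016 and -0.029, the members stood higher by 0.67 in WT and by 0.27 in Lpin1-/- liver. For genotype the member medians were -0.19 in fasted and -0.42 in refed liver, against -0.14 and -0.07 over all genes.

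**Figure D1:**
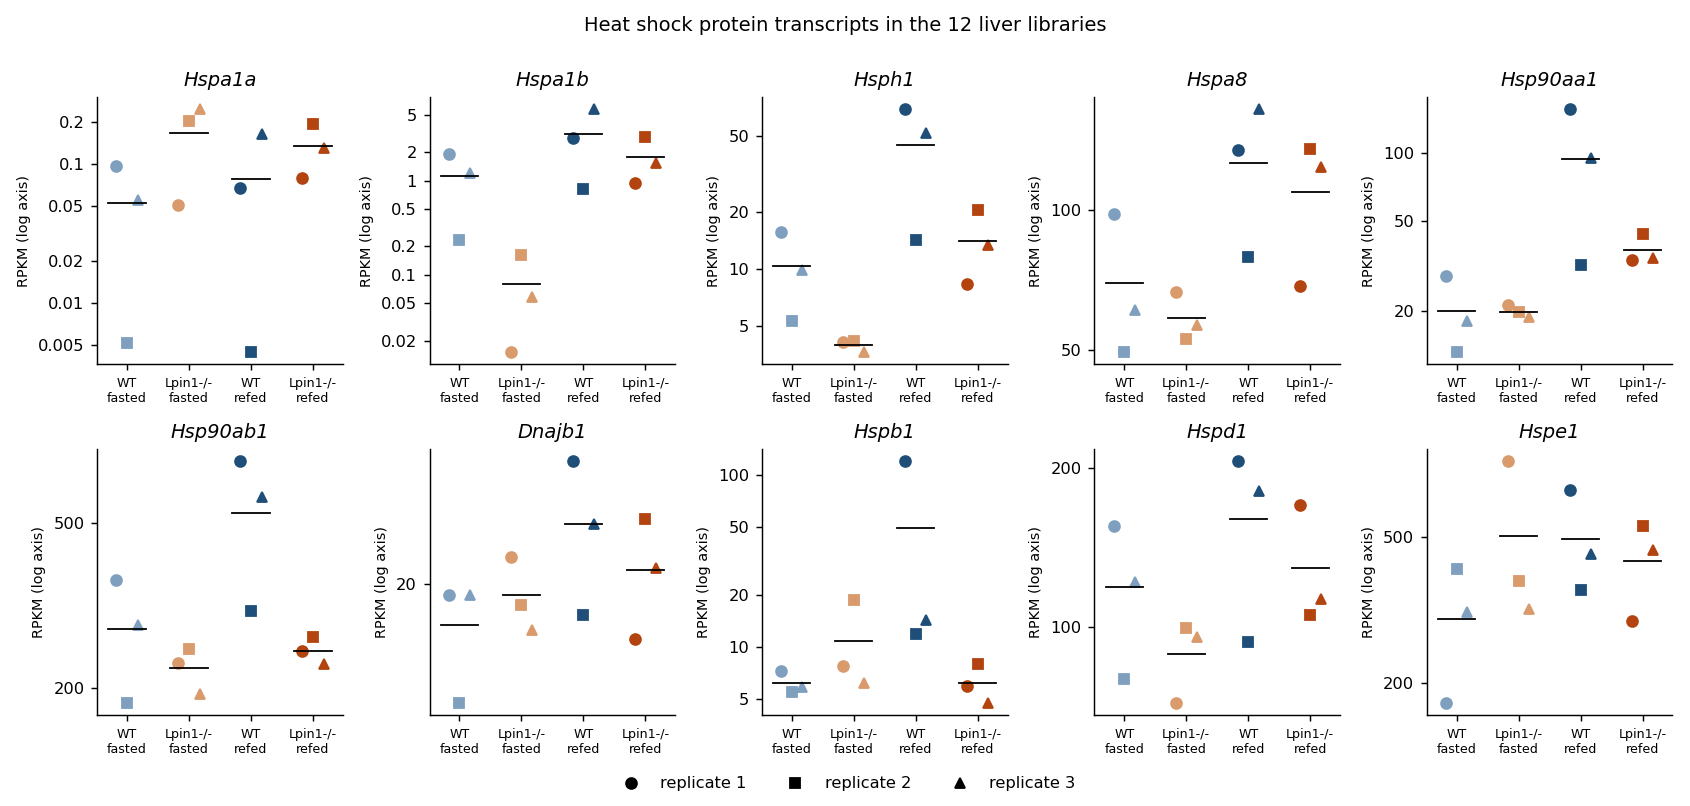
RPKM of each of the 10 genes in the 12 libraries on a logarithmic axis, with 1 symbol per replicate number and a line at the mean of each group of 3. Replicate 2 of refed WT liver (square) is the lowest of its group in all 10 panels, and the 3 fasted Lpin1-/- libraries are lower than all 9 others for Hspa1b and Hsph1. Hspa1b is shown without the reads given to its near copy Hspa1a.

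The HSP90 genes had the highest levels in refed WT liver. Hsp90aa1 stood at 28.7, 13.2, and 18.2 RPKM in fasted WT, at 21.2, 19.8, and 18.8 in fasted Lpin1-/-, at 156.5, 32.1, and 95.3 in refed WT, and at 33.8, 43.8, and 34.5 in refed Lpin1-/- liver. Every refed WT value was above every fasted WT value, and every refed Lpin1-/- value above every fasted Lpin1-/- value, but replicate 2 of refed WT was lower than all 3 refed Lpin1-/- livers. The log2 fold change of RPKM + 1 for refeeding was 1.98 (SE 0.46, limma adjusted p = 0.0562) in WT and 0.87 (SE 0.46, adjusted p = 0.195) in Lpin1-/- liver. Without replicate 2 of refed WT the WT value was 2.62 with an adjusted p of 0.00587, and the genotype difference in refed liver went from -1.06 (SE 0.46, adjusted p = 0.197) to -1.69 (adjusted p = 0.0151). That library was the lowest of its group, so leaving it out widens both differences. Over all alternative settings, the limma adjusted p ran from 0.00587 to 0.278 for refeeding in WT. For genotype in refed liver it ran from 0.0151 to 0.479.

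Hsp90ab1, the constitutive cytosolic HSP90, was the most abundant cytosolic member. Its level was 364.5, 183.2, and 283.5 RPKM in fasted WT, 229.9, 247.6, and 192.6 in fasted Lpin1-/-, 705.5, 305.5, and 576.5 in refed WT, and 244.6, 264.3, and 227.8 in refed Lpin1-/- liver. The 3 refed WT livers were above the 3 refed Lpin1-/- livers, with means of 529.2 ± 204.2 and 245.6 ± 18.3 RPKM (SD, n = 3), whereas fasted and refed Lpin1-/- livers overlapped. The genotype difference in refed liver was -1.02 on the log2 scale (SE 0.32, limma adjusted p = 0.0801), and -1.38 (adjusted p = 0.0230) without replicate 2 of refed WT. That library was the lowest of its group, and over all alternative settings the adjusted p ran from 0.0230 to 0.230. Refeeding gave 0.90 (SE 0.32, adjusted p = 0.223) in WT and 0.14 (SE 0.32, adjusted p = 0.776) in Lpin1-/- liver.

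Hsph1, an exchange factor for Hsp70 that also holds unfolded proteins itself, was lowest in fasted Lpin1-/- liver. It stood at 15.7, 5.33, and 9.87 RPKM in fasted WT, at 4.14, 4.19, and 3.67 in fasted Lpin1-/-, at 68.8, 14.1, and 51.5 in refed WT, and at 8.33, 20.4, and 13.4 in refed Lpin1-/- liver. The fasted Lpin1-/- values lay close together below every other library, while the lowest refed WT value fell within the refed Lpin1-/- range. Refeeding gave a log2 fold change of 1.86 (SE 0.53, limma adjusted p = 0.120) in WT and 1.51 (SE 0.53, adjusted p = 0.0628) in Lpin1-/- liver. The genotype difference was -1.07 (SE 0.53, adjusted p = 0.184) in fasted and -1.42 (SE 0.53, adjusted p = 0.133) in refed liver. Without replicate 2 of refed WT the adjusted p was 0.0178 for refeeding in WT, 0.0152 for refeeding in Lpin1-/-, and 0.0196 for genotype in refed liver. That library was the lowest of its group. Over all alternative settings these limma adjusted p-values reached up to 0.395, 0.197, and 0.373.

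Hspa1b, a stress-inducible Hsp70, was lowest in fasted Lpin1-/- liver, at 0.0153, 0.164, and 0.0581 RPKM. It stood at 1.91, 0.235, and 1.21 RPKM in fasted WT, at 2.82, 0.811, and 5.70 in refed WT, and at 0.946, 2.90, and 1.54 in refed Lpin1-/- liver. All fasted Lpin1-/- values were below all other values, and the refed groups overlapped. This separation rests on how reads were shared out between Hspa1b and its near-identical neighbor Hspa1a, which is uncertain. With the RPKM of both copies added together, fasted Lpin1-/- and fasted WT liver overlapped. In units of the smallest step between its values, taken as 1 read at the relative depths, the fasted Lpin1-/- libraries held 3, 34, and 12 reads and the fasted WT libraries 398, 46, and 242. The log2 fold change of RPKM + 1, a scale that understates differences between low values, was -0.89 (SE 0.44, limma adjusted p = 0.190) for genotype in fasted liver and 1.32 (SE 0.44, adjusted p = 0.0562) for refeeding in Lpin1-/- liver. With a pseudocount of 0.1 in place of 1 these values were -2.50 (adjusted p = 0.0390) and 3.35 (adjusted p = 0.0107), both past the threshold, where 20.2% and 21.7% of all genes passed. Both are values of Hspa1b taken alone, so they depend on the same sharing of reads.

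Hspa1a, the neighboring copy of the same Hsp70, was near the limit of detection. It stood at 0.0961, 0.00511, and 0.0549 RPKM in fasted WT, at 0.0510, 0.203, and 0.247 in fasted Lpin1-/-, at 0.0666, 0.00444, and 0.164 in refed WT, and at 0.0789, 0.194, and 0.130 in refed Lpin1-/- liver. The groups overlapped, and the counts behind these values ran from 1 to 51 reads. RPKM of Hspa1a was above that of Hspa1b in all 3 fasted Lpin1-/- libraries and below it in the other 9. The reading frames of the genes (1926 and 1929 bases) agree at 99.6% of aligned bases, so how reads were shared out between the copies is uncertain.

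The start regions of the Hsp70 copies on chromosome 17 were nearly the same as well, and the windows below are given because they hold the only match to the short heat shock motif in each. Of the 300 bases from 250 before to 50 after the RefSeq start (GRCm38.p6), 98.7% were identical, and the capitals mark the match, from 104 to 97 bases before the start on the minus strand (chr17:34972242-34972271 and chr17:34959324-34959353).
Hspa1a: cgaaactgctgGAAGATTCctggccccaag
Hspa1b: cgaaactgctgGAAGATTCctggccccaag
The same letters stood at the same distance from the start of each gene. The levels of the copies are not known apart with certainty, and the part of these letters in them was not tested.

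Hspa8, the Hsp70 that is made constantly in most cells, was at 98.2, 49.6, and 61.0 RPKM in fasted WT, at 66.5, 52.9, and 56.8 in fasted Lpin1-/-, at 134.8, 79.1, and 164.7 in refed WT, and at 68.8, 135.4, and 123.7 in refed Lpin1-/- liver. The genotypes overlapped in both states, and refed exceeded fasted values without overlap in Lpin1-/- liver only, by a margin of 68.8 over 66.5 RPKM. Refeeding gave a log2 fold change of 0.84 (SE 0.34, limma adjusted p = 0.287) in WT and 0.83 (SE 0.34, adjusted p = 0.102) in Lpin1-/- liver. The latter was 1.13 (adjusted p = 0.0483) without replicate 1 of refed Lpin1-/- liver, the lowest of its group. Over all alternative settings the limma adjusted p of the latter ran from 0.0286 to 0.377.

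**Figure D2:**
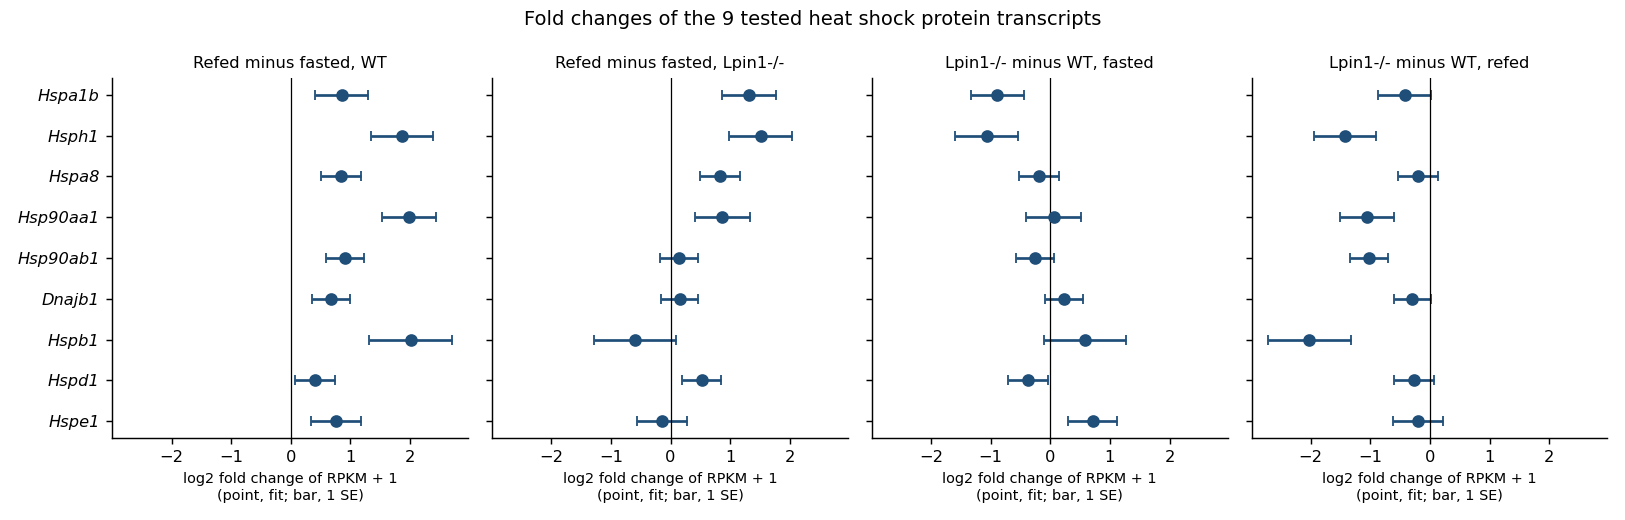
Log2 fold change of RPKM + 1 (points, with bars of 1 SE) of the 9 tested genes for refeeding in each genotype and for genotype in each feeding state. All 9 points lie above 0 for refeeding in WT (72.5% of all genes) and all 9 below 0 for genotype in refed liver (56.2% of all genes), and no value passed the threshold.

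The Hspa8 transcript also differed in form. Exon 2 of Hspa8 (chr9:40801918-40802127, plus strand, GRCm38, 210 bases) holds the start codon at 40801923 to 40801925, and reads that join exon 1 directly to exon 3 were counted in all 12 libraries. In fasted liver 4, 1, and 1 reads skipped the exon in the WT libraries and 53, 67, and 25 in the Lpin1-/- libraries. After correction for the lengths of the forms, this was 0.291%, 0.212%, and 0.137% of WT transcripts and 8.13%, 8.65%, and 3.25% of Lpin1-/- transcripts crossing this stretch, with means of 0.213 ± 0.077% and 6.68 ± 2.98% (SD, n = 3). The highest WT library had an exact 95% binomial interval of 0.0795% to 0.742% and the lowest Lpin1-/- library of 2.13% to 4.74%, which cover counting error only. The log2 ratio of inclusion to skipping was lower by 4.58 in Lpin1-/- liver (log2 difference -4.58, SE 0.76, limma adjusted p = 0.00274 over 69644 events, of which 11.3% passed). The tables list the libraries of a group without replicate numbers, so a splicing value could not be set beside the RPKM of the same mouse.

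The exon was skipped more often in refed Lpin1-/- than in refed WT liver too. Skipping reads numbered 3, 2, and 3 in refed WT and 38, 45, and 29 in refed Lpin1-/- liver, or 0.192%, 0.210%, and 0.161% against 2.96%, 2.18%, and 2.04%. The groups did not overlap, with means of 0.188 ± 0.025% and 2.39 ± 0.50% (SD, n = 3) and a log2 difference in the ratio of -3.46 (SE 0.62, limma adjusted p = 0.0332 over 65231 events, of which 0.97% passed). With any of the 6 refed libraries left out no member event passed, and 0 to 15 events passed in all. The fasted and refed differences were not compared with each other in a test. The table for each state lists 8 events on variants of this exon that share the same skipping reads, of which 7 were tested and 7 passed, so they are 1 observation and not 7.

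The sequences at the exon are shown because skipping removes the annotated start of the protein. The start codon is in capitals in the first 30 bases of exon 2 (chr9:40801918-40801947), and in the skipped form the last 15 bases of exon 1 (ending at 40801348) in lower case meet the first 15 of exon 3 (starting at 40802418) in capitals.
Hspa8 exon 2: caaccATGtctaagggacctgcagttggca
Hspa8 exon 1 to exon 3: gggcctacacacaagATGCCAAACGTCTGA
Exon 2 holds 205 coding bases, which is 68 codons and 1 base, so the letters ATG at the start of exon 3 are not in the annotated reading frame. Whether the skipped form is translated was not measured.

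**Figure D3:**
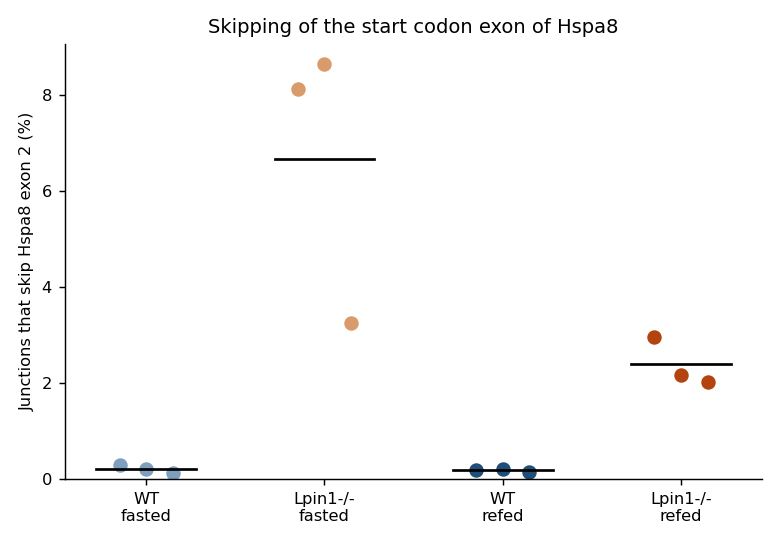
Percentage of Hspa8 transcripts, after correction for length, that skip exon 2 in each library (points) with the mean of each group of 3 (line). The Lpin1-/- libraries run from 3.25% to 8.65% in fasted and from 2.04% to 2.96% in refed liver, and all 6 WT libraries are at or below 0.291%.

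Dnajb1, the J-domain protein that hands substrates to Hsp70, separated no groups. It stood at 18.9, 10.9, and 18.9 RPKM in fasted WT, at 23.0, 17.99, and 15.9 in fasted Lpin1-/-, at 37.2, 17.1, and 27.0 in refed WT, and at 15.1, 27.7, and 21.6 in refed Lpin1-/- liver. The lowest refed WT liver lay below 2 of the 3 fasted WT livers. The log2 fold change for refeeding was 0.68 (SE 0.32, limma adjusted p = 0.364) in WT and 0.15 (SE 0.32, adjusted p = 0.759) in Lpin1-/- liver, and the latter was -0.20 after rescaling by the median ratio.

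Hspb1, the small heat shock protein, had 1 library far above the others. It stood at 7.24, 5.49, and 5.89 RPKM in fasted WT, at 7.72, 18.7, and 6.16 in fasted Lpin1-/-, at 120.7, 11.9, and 14.3 in refed WT, and at 5.93, 7.99, and 4.71 in refed Lpin1-/- liver. All 3 refed WT values were above all fasted WT and all refed Lpin1-/- values, but replicate 1 was 10.1 times and replicate 3 only 1.20 times as high as replicate 2. Refeeding in WT gave 2.01 (SE 0.69, limma adjusted p = 0.214) on the log2 scale, and genotype in refed liver -2.03 (SE 0.69, adjusted p = 0.107). The interaction of -2.61 (SE 0.98, unadjusted p = 0.0216, adjusted p = 0.200) was the only one among the members with an unadjusted p below 0.05.

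Hspd1 and Hspe1, the chamber and the lid of the mitochondrial chaperonin, lie head to head on chromosome 1 and share their start region. Hspd1 stood at 155.1, 79.6, and 121.7 RPKM in fasted WT, at 71.4, 99.3, and 95.5 in fasted Lpin1-/-, at 206.8, 93.3, and 181.5 in refed WT, and at 170.1, 105.3, and 112.7 in refed Lpin1-/- liver. The 3 refed Lpin1-/- livers were above the 3 fasted ones, and in the other comparisons the groups overlapped. Hspe1 stood at 175.3, 408.9, and 313.0 RPKM in fasted WT, at 811.7, 380.2, and 318.7 in fasted Lpin1-/-, at 674.1, 359.3, and 451.4 in refed WT, and at 294.1, 538.1, and 461.2 in refed Lpin1-/- liver, with overlap in all 4 comparisons.

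For refeeding the log2 fold changes were 0.40 (SE 0.33, limma adjusted p = 0.626) in WT and 0.52 (SE 0.33, adjusted p = 0.284) in Lpin1-/- liver for Hspd1. For Hspe1 they were 0.76 (SE 0.42, adjusted p = 0.457) and -0.14 (SE 0.42, adjusted p = 0.828). By genotype, Hspe1 was at 0.71 (SE 0.42, adjusted p = 0.267) in fasted liver, a value that was -0.04 without replicate 1 of fasted WT, fasted Lpin1-/-, and refed Lpin1-/- liver.

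The partners did not keep 1 ratio. Hspe1 RPKM was 1.13, 5.14, and 2.57 times that of Hspd1 in fasted WT, 11.4, 3.83, and 3.34 times in fasted Lpin1-/-, 3.26, 3.85, and 2.49 times in refed WT, and 1.73, 5.11, and 4.09 times in refed Lpin1-/- liver. The exon length is 1474 bases for Hspe1 and 2642 for Hspd1, and the libraries differed in short against long genes as a whole. The median log2 deviation of the 387 genes under 1000 bases minus that of the 5952 genes over 4000 bases was -0.75 in replicate 1 of fasted WT and -0.74 in replicate 1 of refed Lpin1-/- liver, which had the lowest ratios, and 1.01 in replicate 1 of fasted Lpin1-/- liver, which had the highest. It was between -0.22 and 0.53 in the other 9 libraries. Its part in the ratio was not tested. The annotation holds 5 pseudogenes named for Hspd1 and 6 for Hspe1, and reads may be split between them and the genes.

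**Figure D4:**
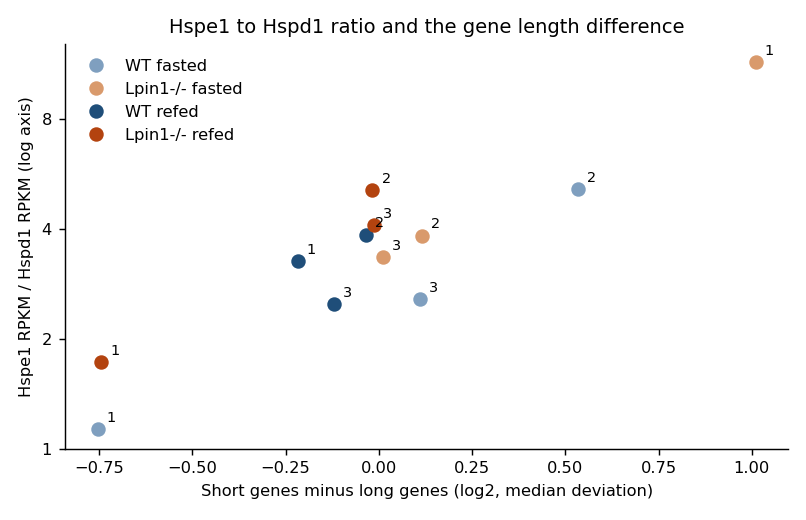
Ratio of Hspe1 to Hspd1 RPKM (logarithmic axis) against the difference between short and long genes (log2) in the 12 libraries, numbered by replicate and colored by group. The libraries with the lowest values on the horizontal axis (-0.75 and -0.74) have the lowest ratios (1.13 and 1.73), and the library at 1.01 has the highest ratio (11.4).

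The shared start region carries the longest run of heat shock motif among the 7 members with a window to search, and so is shown on both strands (chr1:55088053-55088082, GRCm38.p6). The capitals mark 18 bases with overlapping matches, from 89 to 72 bases before the start of Hspe1 and from 144 to 127 bases before a start of Hspd1.
Hspe1: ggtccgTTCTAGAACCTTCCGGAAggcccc
Hspd1: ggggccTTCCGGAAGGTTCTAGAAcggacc
The part of these letters in the levels of Hspd1 and Hspe1 was not tested.

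Start regions were searched on both strands for a short motif, GAANNTTC or TTCNNGAA, and for a long motif of the same repeats, GAANNTTCNNGAA or TTCNNGAANNTTC, which contains the short one. RefSeq windows of 300 bases were at hand for 7 of the 10 genes, not for Hspa8, Hsp90aa1, and Hsp90ab1. The short motif was in windows of 6 of these 7 genes and in 15.1% of all 32851 windows, and the long motif in windows of 3 genes (Hspd1, Hspe1, and Hsph1) and in 0.603% of all windows. Hspd1 and Hspe1 share the same matching bases, and the windows of Hspa1a and Hspa1b are 98.7% identical, so these genes are not independent. The 7 genes have 10 windows, so a count of genes and a share of windows are unlike measures. Dnajb1 had no match in either of its windows, and Hspd1 had none in the window of its other start (chr1:55088194-55088493). The matches of Hspb1 and Hsph1 are printed as they complete the members with a match. Both matches of Hspb1 lie between 117 and 90 bases before the start (chr5:135887801-135887830, plus strand), and the long match of Hsph1 lies 37 to 49 bases after it (chr5:149636287-149636316, minus strand).
Hspb1: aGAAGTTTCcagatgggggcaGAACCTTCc
Hsph1: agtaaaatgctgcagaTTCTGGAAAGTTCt
A match describes these letters only, and binding of HSF1 was not measured.

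In refed WT liver the same mouse was the lowest for each member. Replicate 2 of refed WT was the lowest of its group for 10 of 10 members, compared with 37.1% of all genes tested, and replicate 1 was the highest for 7 and replicate 3 for 3. Replicate 1 exceeded replicate 2 by 4.88 times for Hsp90aa1, 4.87 times for Hsph1, and 1.70 times for Hspa8. The median SD over the 3 mice on the log2 scale was 0.63 for members and 0.23 for all genes in refed WT, and 0.42 and 0.22 in refed Lpin1-/- liver. It was 0.50 and 0.34 in fasted WT, and in fasted Lpin1-/- liver the members varied less than genes at large, at 0.19 and 0.28.

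Other orders within groups were less uniform. In refed Lpin1-/- liver replicate 2 was the highest for 9 of 10 members (38.1% of all genes), and in fasted WT replicate 2 was the lowest for 9 of 10 (62.7% of all genes). In fasted Lpin1-/- liver the highest values were spread as 4, 5, and 1 over the 3 replicates.

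Markers of some other cell types were high in replicate 2 of refed WT. Of all genes tested, 35.9% were highest in this library within its group. So were 5 of 6 Kupffer cell, 5 of 5 leukocyte, and 5 of 5 cholangiocyte markers. Their sums were 454.5, 101.6, and 103.0 RPKM there, compared with 107.2 and 64.2, 13.1 and 4.83, and 31.7 and 39.4 in replicates 1 and 3. Summed stellate cell and sinusoidal endothelium markers were 225.1 and 55.4 RPKM there, between the sums of replicates 1 and 3. By gene, 4 of 6 sinusoidal endothelium and 2 of 6 stellate cell markers were highest there within the group. Summed erythroid markers were lowest there at 409.7 RPKM, against 599.9 and 736.5. The hepatocyte sum was 31560 RPKM in replicate 2 and 47140 and 59460 in replicates 1 and 3. Summed Kupffer cell markers ranged from 116.5 to 240.3 RPKM in fasted WT, 218.2 to 572.3 in fasted Lpin1-/-, and 67.0 to 164.1 in refed Lpin1-/- liver, and leukocyte markers from 11.5 to 121.3, 51.0 to 175.0, and 24.4 to 53.4. Cholangiocyte markers summed to 32.1 to 45.8, 24.9 to 451.5, and 19.2 to 27.8 RPKM in these groups, the 451.5 being replicate 1 of fasted Lpin1-/- liver. The part of these cells in the member values was not tested.

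Endoplasmic reticulum chaperones are the counterparts of the members in the secretory pathway. Within refed WT, 11 of 14 tested were lowest in replicate 2, as were 13 of 18 Hsp90 co-chaperones, against 37.1% of all genes. The median ratio of replicates 1 and 3 to replicate 2 was 1.28 and 1.60 for these 14, and 2.31 and 1.95 for the 9 tested members. Hspa5, the Hsp70 of that compartment, stood at 955.9 RPKM there, against 1336 and 1693 in the other refed WT livers and 183.5 to 305.5 in fasted WT. Hsp90b1, its HSP90, stood at 582.6 RPKM, against 890 and 1045 and against 193.5 to 221.8 in fasted WT. Creld2, a co-chaperone of that compartment, stood at 194.9 RPKM, against 468.6 and 602.9 in replicates 1 and 3.

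**Figure D5:**
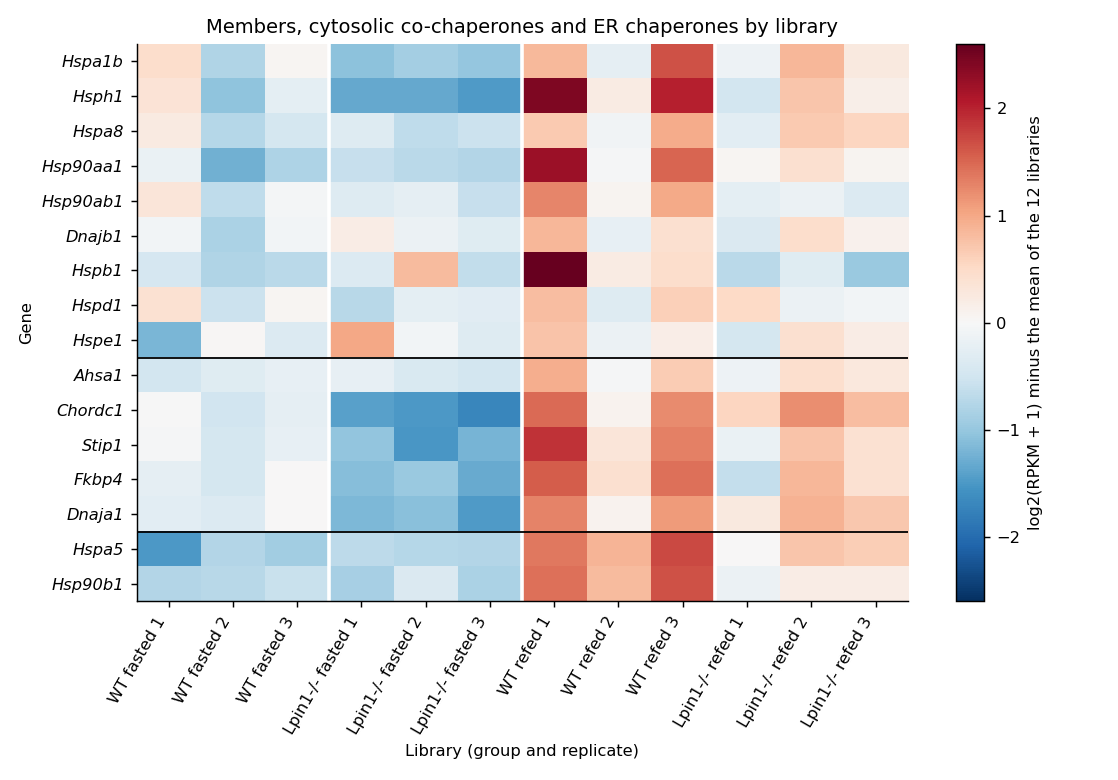
Log2(RPKM + 1) minus the mean of the 12 libraries for the 9 tested members (top), 5 cytosolic co-chaperones (middle), and 2 endoplasmic reticulum chaperones (bottom), with white lines between groups. Replicate 2 of refed WT is paler than its neighbors for the members and co-chaperones, and the co-chaperones other than Ahsa1 are darkest blue in fasted Lpin1-/- liver.

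The gene most like the members was a partner of HSP90. Of all tested genes that are not members, the 5 with the highest Pearson r with the mean z-score of the 9 members over the 12 libraries were Ahsa1 (0.919), Creld1 (0.905), Ahsa2 (0.905), Slc39a10 (0.902), and Bpnt1 (0.901). Ahsa1, which stimulates the ATPase of HSP90, stood at 70.6 to 84.8 RPKM in fasted WT, 70.3 to 84.5 in fasted Lpin1-/-, 190.0, 96.1, and 156.2 in refed WT, and 89.5 to 133.9 in refed Lpin1-/- liver. Among the members themselves, r with the same mean ran from 0.979 for Hsp90aa1 and 0.952 for Hsph1 to 0.371 for Hspe1. The libraries share groups and scaling, so these values describe likeness only.

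Some partners of the members passed where no member did, but the lists were not compared in a test. Of 18 Hsp90 co-chaperones, 7 were higher after refeeding in Lpin1-/- liver and 0 lower, where 17.8% of all genes were higher. The list median was 0.56, against 0.52 for the members and 0.25 for all genes. Chordc1, a co-chaperone that itself responds to HSF1, went from 4.32, 4.01, and 3.34 to 19.8, 31.6, and 23.7 RPKM (log2 fold change 2.39, SE 0.32, limma adjusted p = 9.19e-04). Stip1, which links Hsp70 to HSP90, went from 14.4, 9.96, and 12.6 to 26.8, 51.6, and 40.6 RPKM (1.58, adjusted p = 0.0104), and Fkbp4, a partner of HSP90 on steroid receptors, from 30.4, 33.6, and 26.4 to 43.0, 122.2, and 88.7 RPKM (1.34, adjusted p = 0.0268). The groups did not overlap for any of these 3 genes. In WT 0 of 18 passed for refeeding (1.72% of all genes), with Chordc1 at 1.18, Stip1 at 1.41, and Fkbp4 at 1.37. Without replicate 2 of refed WT 6 passed (1.26% of all genes). The call of Chordc1 in Lpin1-/- liver held without each library in turn, that of Stip1 ended without replicate 2 of refed Lpin1-/-, and that of Fkbp4 ended without any fasted Lpin1-/- library or replicate 2 or 3 of refed Lpin1-/-.

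By genotype, 2 co-chaperones were higher and 3 lower in fasted Lpin1-/- than in fasted WT liver (5.63% and 13.2% of all genes). In refed liver 1 was higher and 1 lower (2.6% and 4.07%). Chordc1 was lower in fasted Lpin1-/- liver (-1.29, SE 0.32, limma adjusted p = 0.0166), and Cacybp lower in refed Lpin1-/- liver (-0.99, adjusted p = 0.04997, just under the threshold). The former call ended without replicate 3 of fasted WT, and the latter without any of 10 of the 12 libraries. None of the 18 passed for the interaction (1.28% of all genes), so a difference between genotypes in the refeeding response was not shown.

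Partners of Hsp70 were tested as well. Of all genes, 17.8% were higher after refeeding in Lpin1-/- liver. In WT 1.52% were higher and 1.72% passed in either direction. Of 16 J-domain proteins of the cytosol and nucleus, 4 were higher after refeeding in Lpin1-/- liver (Dnaja1, Dnajb2, Dnajb4, and Dnajc2), 0 passed for refeeding in WT, and 2 were lower in fasted Lpin1-/- than in fasted WT liver (13.2% of all genes). Dnaja1, a partner of Hspa8, stood at 26.8, 28.7, and 21.5 RPKM in fasted Lpin1-/-, 51.1, 48.2, and 62.4 in fasted WT, and 73.5, 117.4, and 101.3 in refed Lpin1-/- liver. Its log2 fold change was -1.04 (SE 0.29, limma adjusted p = 0.0301) for genotype in fasted liver and 1.87 (SE 0.29, adjusted p = 0.00209) for refeeding in Lpin1-/- liver. Of 14 tested Hsp70 relatives and exchange factors, 4 were higher after refeeding in Lpin1-/- liver and 1 in WT, and 3 were higher in Lpin1-/- than in WT liver in each feeding state (5.63% of all genes in fasted and 2.6% in refed liver). The exchange factor Bag3 was among the former (1.30, adjusted p = 0.0178), and Bag2, which inhibits the ubiquitin ligase CHIP, was the most changed by genotype (2.64 in fasted, adjusted p = 5.22e-04, and 1.94 in refed liver, adjusted p = 0.00677). The fasted call of Dnaja1 ended for 5 of 12 libraries left out in turn (replicates 1 and 3 of fasted WT and each fasted Lpin1-/- library), that of Bag3 for 3 of 12 (replicate 1 of fasted Lpin1-/- and replicates 1 and 2 of refed Lpin1-/-), and those of Bag2 for 0 of 12. For refeeding in Lpin1-/- liver, the calls of Dnajb2 and Dnajc2 each ended for 7 of 12, and those of Dnaja1 and Dnajb4 for 0. By genotype, the calls of Hspa2 in fasted and Bag4 in refed liver each ended for 9 of 12, and those of Bag5 in fasted and Hspa2 in refed liver for 0.

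The heat shock factors themselves were measured too. Of 5 tested factors and regulators, 3 were higher after refeeding in Lpin1-/- liver (17.8% of all genes) and 0 passed in WT (1.72%). Hsf1 stood at 9.86, 5.38, and 7.60 RPKM in fasted WT, 4.50, 7.95, and 7.57 in fasted Lpin1-/-, 12.1, 8.48, and 10.9 in refed WT, and 14.1, 14.1, and 12.1 in refed Lpin1-/- liver, with a log2 fold change for refeeding of 0.44 (SE 0.25, limma adjusted p = 0.471) in WT and 0.94 (SE 0.25, adjusted p = 0.0219) in Lpin1-/- liver. Hsf2, a related factor, was lowest in fasted Lpin1-/- liver at 2.14, 2.90, and 3.47 RPKM, against 8.81 to 11.1 in fasted WT, 6.66 to 9.73 in refed WT, and 9.02 to 11.8 in refed Lpin1-/- liver. Its genotype difference in fasted liver was -1.57 (SE 0.20, adjusted p = 7.74e-04). Hsf4 was higher in refed Lpin1-/- liver than in fasted Lpin1-/- (1.14, adjusted p = 0.0114) and refed WT liver (1.07, adjusted p = 0.0341), although the latter ended for 7 of 12 libraries left out in turn, replicate 2 of refed WT and the other 5 refed libraries among them. The call of Hsf1 ended without replicate 1 of fasted Lpin1-/- or replicate 1 or 2 of refed Lpin1-/-.

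Among 17 other genes known to respond to HSF1, some of which are also in the lists above, 9 were higher and 1 lower after refeeding in Lpin1-/- liver (17.8% and 2.92% of all genes). For refeeding in WT 0 passed (1.72%), and 6 passed without replicate 2 of refed WT (1.26%). The gene that was lower, Ubb, encodes polyubiquitin. In fasted liver 2 were higher in Lpin1-/- than in WT (Hspb8 and Serpinh1) and 3 lower (Chordc1, Dnaja1, and Dnajb4), against 5.63% and 13.2% of all genes. In refed liver 3 were lower (4.07% of all genes). Of 5 tested small heat shock proteins, Hspb8 was higher in fasted Lpin1-/- liver (1.61, limma adjusted p = 0.00130) and Cryab lower in refed Lpin1-/- liver (-1.25, adjusted p = 0.0389). The call of Hspb8 held without each of the 12 libraries in turn, and those of Cryab and Serpinh1 each ended for 7 of the 12, replicate 2 of refed WT being among those for Cryab.

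Folding machines of the mitochondria and the chaperonin of the cytosol were tested too. Of 15 mitochondrial chaperones and proteases, 2 (Clpx and Grpel2) were lower after refeeding in WT (0.2% of all genes). After refeeding in Lpin1-/- liver 2 were higher (17.8% of all genes) and 1 lower (2.92%). Clpx, an unfoldase, fell by 1.55 (limma adjusted p = 0.0105) in WT and by 0.94 (adjusted p = 0.00882) in Lpin1-/- liver. By genotype 1 was lower in fasted liver (13.2% of all genes), and 1 was higher (2.6%) and 1 lower (4.07%) in refed liver (Clpx and Spg7). Without replicate 2 of refed WT, 1 of the 2 calls for refeeding in WT (Clpx) and 0 of the 2 for genotype in refed liver were left. Hspa9, the mitochondrial Hsp70, stood at 197.9, 87.4, and 145.6 RPKM in fasted WT, 80.4, 128.6, and 142.6 in fasted Lpin1-/-, 177.4, 103.3, and 189.8 in refed WT, and 260.6, 152.2, and 171.6 in refed Lpin1-/- liver, and passed in no contrast. Of 13 tested subunits of the cytosolic chaperonin and prefoldin, 2 were higher after refeeding in Lpin1-/- liver (17.8% of all genes). In fasted liver 1 was lower in Lpin1-/- than in WT (13.2% of all genes). With each library left out in turn, the calls of Cct8 and Tcp1 (higher) ended for 9 and 6 of 12, and that of Pfdn6 (lower) for 7.

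Chaperones of the endoplasmic reticulum had calls for refeeding in both genotypes, where no member passed. Of 14 tested, 12 were higher after refeeding in WT (1.52% of all genes) and 8 in Lpin1-/- liver (17.8%), against 0 of 9 members in each. The list medians were 1.80 and 1.18 on the log2 scale. Hyou1, an exchange factor of that compartment, rose by 2.86 in WT (limma adjusted p = 0.00356) and 2.84 in Lpin1-/- liver (adjusted p = 3.57e-04), and Creld2, a stress-induced co-chaperone, by 3.85 (adjusted p = 0.0105) and 1.92 (adjusted p = 0.0214), the last a call that ended without replicate 1 or 3 of fasted or 2 or 3 of refed Lpin1-/- liver. By genotype 2 were lower in fasted (13.2% of all genes) and 5 lower in refed Lpin1-/- liver (4.07%). The difference between the lists was not tested.

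Among the cold-inducible RNA-binding proteins, which rise when body temperature falls, Cirbp was highest in fasted Lpin1-/- liver. It stood at 34.0, 32.9, and 26.8 RPKM in fasted WT, 86.0, 83.2, and 101.0 in fasted Lpin1-/-, 13.8, 21.6, and 11.6 in refed WT, and 23.9, 12.4, and 18.01 in refed Lpin1-/- liver. The log2 difference by genotype in fasted liver was 1.50 (SE 0.26, limma adjusted p = 0.00310), and refeeding gave -2.29 (adjusted p = 5.83e-04) in Lpin1-/- and -0.99 (adjusted p = 0.0945) in WT liver. Rbm3 stood at 52.7 to 85.2 RPKM in fasted WT, 81.3 to 162.9 in fasted Lpin1-/-, 39.5 to 124.2 in refed WT, and 113.2 to 128.0 in refed Lpin1-/- liver, and passed in no contrast. In refed WT, replicate 2 held the highest values of both Cirbp and Rbm3 (35.9% of all genes) and the lowest values of all 10 members (37.1%). Body temperature was not measured, and its part was not tested.

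Immediate early genes, which respond within minutes to stress and growth signals, were higher in fasted Lpin1-/- than in fasted WT liver for 6 of 9 tested (5.63% of all genes). After refeeding in Lpin1-/- liver 5 of 9 were lower (2.92% of all genes). Atf3, a stress-induced factor, stood at 7.69, 12.7, and 20.9 RPKM in fasted Lpin1-/- and at 0.810, 0.466, and 0.858 in fasted WT liver (log2 difference 3.02, limma adjusted p = 3.99e-04). No immediate early gene passed for refeeding in WT (1.72% of all genes) or for genotype in refed liver (6.67%). For genotype in fasted liver 4 of 9 members had a log2 difference above 0 (39.5% of all genes). Hspa1b and Hsph1 were below all WT values (2 of 9 members). Of all genes, 22.2% were lower without overlap, and 32.9% did not overlap in either direction.

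Without overlap of the groups, 2 of 9 members were higher after refeeding in WT (14.6% of all genes) and 5 of 9 after refeeding in Lpin1-/- liver (37.5%). In refed liver 2 of 9 were lower in Lpin1-/- (19.1%). In either direction, 18.1%, 46.8%, and 33.9% of all genes did not overlap. In refed liver the members were near the share of all genes for lower values and under the share for either direction. After rescaling by the median ratio, 3 of 9 members did not overlap for refeeding in Lpin1-/- liver. These counts rest on 9 members and were not tested.

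Outside exon 2 of Hspa8, members had 24 skipped exon events in fasted and 18 in refed liver, and 1 passed. The fasted table held 32 events of 6 members, of which 31 were tested and 8 passed (11.3% of all events), and the refed one held 26 events of 5 members, of which 25 were tested and 7 passed (0.97% of all events), most of them sharing the reads of 1 exon. The event that passed besides those of Hspa8 was exon 8 of Hspd1 (chr1:55081073-55081172, 100 bases) in fasted liver, with 0, 0, and 0 skipping reads beside 8059, 3365, and 5744 inclusion reads in WT and 2, 7, and 3 beside 2677, 4642, and 4780 in Lpin1-/- liver (limma adjusted p = 0.0163). A count of 0 allows a share of up to 0.0892% in the shallowest of these WT libraries, and the highest Lpin1-/- share was 0.151% of reads, so the difference rests on 12 reads. It did not pass without list position 1 or 3 of WT or position 2 of Lpin1-/- liver.

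The exon of 132 bases of Hsph1 (chr5:149623465-149623596), whose loss gives the shorter form of the protein, was kept in nearly all transcripts. In refed liver its skipping reads were 32, 3, and 5 in WT beside 2692, 613, and 2625 inclusion reads, and 1, 2, and 0 in Lpin1-/- beside 451, 1094, and 654. The log2 difference of 1.55 (SE 0.85, limma adjusted p = 0.458) did not pass. No tested event of Hspe1, Hsp90ab1, or Dnajb1 passed in either table.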

How the data were processed

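RPKM came from liver RNA-Seq of 12 mice. Per the labels and the study's methods, the authors aligned 69-base paired reads with HISAT2 2.0.5 to GRCm38 (Ensembl release 84), counted genes with HTSeq 0.6.0, and deposited RPKM per gene and library. The strand setting of the counting is not given in the sources used here, and Hspd1 and Hspe1 overlap on opposite strands. The deposited rMATS tables hold other values, inclusion and skipping read counts per library for skipped exon events, together with the authors' p-values and inclusion differences, which were not used. In these tables the groups were taken from the comparison names and checked on events shared with the table of fasted against refed WT liver, where 1523 of 1523 and 1719 of 1719 had identical WT counts. Depth per library is known only relative to the others for RPKM, and as 336.6 M to 662.6 M inclusion counts summed over events.

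Genes averaging 0.5 RPKM or more over the 12 libraries were fitted as log2(RPKM + 1) with limma 3.58.1 (R 4.3.3) over 4 groups with a variance trend, with Benjamini-Hochberg adjustment across 11507 genes and a threshold of 0.05. Events whose 6 libraries each held 10 counts or more were fitted within a feeding state, on the log2 ratio of counts divided by form length with 0.5 added. With 3 mice a group, the p-values measure the spread between these mice. For expression this spread was pooled over the 4 groups, so a gene has the same SE for refeeding and for genotype. The spread of members was unequal, with a median SD of 0.63 in refed WT and 0.19 in fasted Lpin1-/- liver. Both models were tested on simulated data. Python 3.11.15, pandas 2.3.3, numpy 2.4.6, and matplotlib 3.10.9 were used, with GENCODE M21 exons and RefSeq start windows (GRCm38.p6). Members and gene lists were chosen with earlier results of these data known. A gene of the list of genes that respond to HSF1 is not reported here. Named genes were all members, up to 4 of the most changed genes per list among those that passed in some contrast, Hspa9, Hsf1, Cirbp, Rbm3, Lpin1, and the 5 genes most like the members. Other genes of the lists (such as Hspa5, Hsp90b1, Ubb, and Ahsa1) were named after their values were seen. Alternatives were another pseudocount, filter, scaling, or variance model, a replicate block, 6 libraries only, the Hsp70 copies summed, other count minimums, and each library left out. A trend on gene length removed, and 3 libraries left out together, were chosen after seeing the data.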

Additional observations from a re-analysis of the deposited data

Results flagged for a closer look

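The refeeding response differed between the genotypes, by the interaction term of the limma fit, for 2 of the genes named from the lists and for no member. For Hsf2 the response in Lpin1-/- minus that in WT was 1.83 on the log2 scale (SE 0.29, adjusted p = 0.0157), with refeeding at 1.54 in Lpin1-/- and -0.30 in WT liver. This call ended without replicate 3 of fasted WT or replicate 2 or 3 of refed Lpin1-/- liver. For Atf3 it was -3.88 (SE 0.48, adjusted p = 0.00664), with refeeding at -2.50 in Lpin1-/- and 1.38 in WT liver, and this call held without each library in turn.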

How the results depend on the processing

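The counts of members that passed were 0 in all 5 contrasts, and 0 with no filter on low values, rescaling by the median ratio, no variance trend, the Hsp70 copies summed, or the gene length trend removed. Replicate numbers are shared by the groups but mark nothing stated, same-numbered libraries correlated at -0.474 to 0.743, and 4 of 12 libraries were closest to one of their own number. With the replicate block 0 members passed in each contrast, and calls over all genes fell for refeeding in WT from 198 to 93 and for the interaction from 147 to 81.

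For refeeding in WT, 1 member (Hsp90aa1) passed at a mean of at least 5 RPKM (2.8% of all genes) and 1 (Hsp90aa1) without the 3 libraries at the ends of the gene length difference (7.55%). For refeeding in Lpin1-/- liver, 2 (Hspa1b and Hsph1) passed with a pseudocount of 0.1 (21.7% of all genes), 3 (those and Hsp90aa1) with only the 6 libraries compared (2373 of 11292 genes), and 1 (Hspa8) without the 3 libraries (19.5%). For genotype in fasted liver 1 (Hspa1b) passed with a pseudocount of 0.1 (20.2%). With 1 library left out, counts ran from 0 to 2 for refeeding in WT, 0 to 3 for refeeding in Lpin1-/-, and 0 to 3 for genotype in refed liver, the highest each time without replicate 2 of refed WT (1.26%, 21.7%, and 4.5% of all genes), and from 0 to 0 for fasted genotype and the interaction. Members without overlap after refeeding in Lpin1-/- liver were 3 after rescaling, in place of 5. Event calls of members ran from 7 to 8 in fasted and from 0 to 0 in refed liver. The cause was not tested, apart from the fewer libraries.

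No value that turned sign passed before or after, and the turns reached Hspe1 for the interaction, at -0.90 with all libraries. Rescaling gave -0.23 (Hsp90ab1) and -0.20 (Dnajb1) for refeeding in Lpin1-/- liver, 0.015 (Hspa8) for genotype in fasted liver, and -0.029 (Hspd1) for the interaction, and removing the length trend gave -0.076 (Hsp90ab1) and -0.09 (Dnajb1) for refeeding in Lpin1-/- liver. Without the 3 libraries, Hspe1 stood at 0.52 for refeeding in Lpin1-/-, -0.039 and 0.059 for genotype in fasted and refed liver, and 0.10 for the interaction, Hspa8 at 0.10 for genotype in refed liver and 0.10 for the interaction, and Hspd1 at -0.46 for the interaction.
With 1 library, or these 3, left out, the range crossed 0 for refeeding in Lpin1-/- liver for Dnajb1 (-0.046 to 0.51) and Hspe1 (-0.41 to 0.52), for genotype in fasted liver for Hspa8 (-0.40 to 0.087), Hsp90aa1 (-0.19 to 0.34), Dnajb1 (-0.015 to 0.35), and Hspe1 (-0.039 to 0.98), and for genotype in refed liver for Hspa1b (-0.92 to 0.027), Hspa8 (-0.50 to 0.10), and Hspe1 (-0.40 to 0.059). For the interaction it crossed 0 for Hspa1b (-0.029 to 0.92), Hsph1 (-1.02 to 0.082), Hspa8 (-0.31 to 0.29), Hspd1 (-0.46 to 0.38), and Hspe1 (-1.17 to 0.098). Of 971 alternative values of the 45 log2 fold changes, 913 kept direction and side of the threshold, 37 turned sign, and 21 passed.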
